A study of Homo sapiens with 4 samples.

Results

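EMP1, EMP2, EMP3 and PMP22 are the 4 members of a small family of membrane proteins, and all 4 were among the 15357 genes listed in the count and FPKM tables of RKO cells. The genes were chosen by name, as the family to which EMP1 belongs, and EMP1 itself was chosen because of its strong fall after CHD7 knockdown in these same samples. The changes of the members between the groups are therefore given as a description, with no test. RNA-seq was performed on 4 samples of RKO, an established human colon cancer cell line; the labels name no other change to its genome. In the vector group (n = 2), the cells had been infected with a lentivirus expressing a control construct, and in the shCHD7_2 group (n = 2) with a lentivirus expressing CHD7 shRNA2, a short hairpin RNA against the mRNA of the chromatin remodeller CHD7. Both groups were stable lines grown in the same medium, and a single CHD7 shRNA was sequenced. The labels do not say whether the replicates were separate cultures, so the errors reflect only the spread between these samples. They come from a fit that draws each gene's spread towards that of other genes, so they are not a gene's own spread.

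The EMP and PMP22 proteins cross the membrane 4 times and belong to a wider group of tetraspan proteins that includes the claudins, which seal tight junctions between epithelial cells. PMP22 (peripheral myelin protein 22) is best known from the myelin of Schwann cells, where duplication of its gene causes the neuropathy Charcot-Marie-Tooth disease type 1A, but it is also found at epithelial junctions. EMP1, EMP2 and EMP3 (epithelial membrane proteins) are found in many epithelial and other tissues. EMP2 is known to act on integrin and caveolin levels at the cell surface, and EMP1 has served as a marker of colorectal tumour cells that can regrow after surgery.

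Total counts per sample ran from 15734679 to 16068650. CHD7 had 85.4 and 91.0 CPM (counts scaled by each library's depth and TMM factor) in the vector samples and 55.5 and 50.1 CPM in the shCHD7_2 samples, so the targeted mRNA was lower in both shCHD7_2 samples (log2 fold change -0.74, SE 0.088; edgeR quasi-likelihood fit, adjusted p = 4.2e-06). With 2 samples against 2, a two-sided permutation test of a single value cannot go below p = 0.333, so the fit across all 11955 genes that passed the filter on low counts was used. Of the colon epithelial markers, 10 of 15 were listed. KRT18 was at a mean of 58.0 FPKM, KRT8 at 12.3, EPCAM at 6.70 and CDX2 at 5.10. The other 6 that were listed had a mean under 0.1 FPKM, KRT20 and CDH17 among them. CDH1, which encodes E-cadherin and is also one of these, had a single read in 1 sample.

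The levels of the members are compared first on the FPKM scale, which is per length and so allows comparison between genes. EMP1 was at 120.95 and 122.97 FPKM in the vector samples. EMP3 was at 95.94 and 80.21 FPKM there. PMP22 was at 31.12 and 31.11 FPKM, and EMP2 was at 6.0 and 6.26 FPKM. The order in vector cells was therefore EMP1, EMP3, PMP22 and EMP2, with no overlap between neighbours in that order. EMP1 stood at percentile 96.0 of all listed genes and EMP2 at percentile 45.4.

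In the shCHD7_2 samples the order was different. EMP3 was the highest member, at 64.81 and 75.09 FPKM. EMP1 was at 32.18 and 30.31 FPKM, within the range of PMP22 at 30.07 and 32.88 FPKM, so these neighbours in the order did not differ beyond their spread. EMP2 was again the lowest, at 6.26 and 6.24 FPKM. EMP1 was 3.92 times the level of PMP22 in vector cells and 0.993 times its level in shCHD7_2 cells, by the means of each group. In shCHD7_2 cells EMP1 stood at percentile 81.3 of all listed genes.

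**Figure D1:**
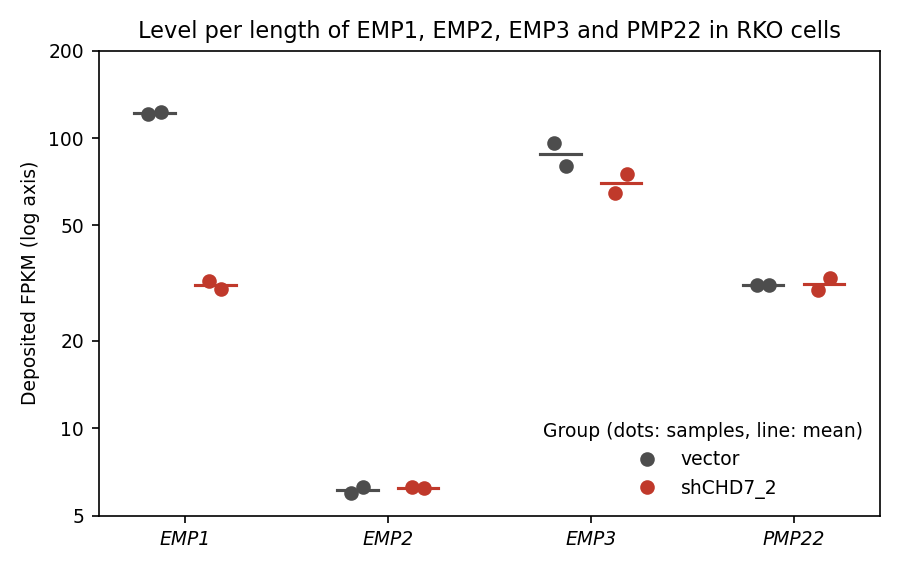
Deposited FPKM (fragments scaled by gene length and depth, log axis) of EMP1, EMP2, EMP3 and PMP22 in each of the 2 vector samples (grey) and the 2 shCHD7_2 samples (red), with the mean of each group as a line. EMP1 goes from a mean of 122 FPKM to 31.2 FPKM, the level of PMP22, while EMP2 and PMP22 keep overlapping samples.

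EMP1 had 5033 and 5217 estimated counts in the vector samples and 1338 and 1266 in the shCHD7_2 samples. After scaling these were 324.2 and 330.5 CPM against 83.4 and 79.3 CPM. Both shCHD7_2 samples lay far below both vector samples, and the samples within each group lay close together. The log2 fold change of EMP1 was -2.01 (SE 0.078), which places the shCHD7_2 level at 24.9% of the vector level, with a 95% interval from 22.2% to 27.8%. Of the 11955 genes tested, 4 had a lower log2 fold change than EMP1. EMP1 was the 1 member of the 4 that was called at the thresholds of the study (fold of 1.5 or more with an adjusted p below 0.05), and 2.88% of all genes tested were called in either direction. Since EMP1 was chosen on this contrast, nothing is read from that count.

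EMP3 had 1006 and 848 estimated counts in the vector samples and 673 and 791 in the shCHD7_2 samples, or 64.8 and 53.7 CPM against 42.0 and 49.6 CPM. Both shCHD7_2 samples were below both vector samples, a pattern that 27.3% of all genes tested showed, but the gap between the nearest samples was smaller than the gap within either group. The log2 fold change of EMP3 was -0.37 (SE 0.10), at 77.3% of the vector level with a 95% interval from 66.7% to 89.5%, and it was not called. Within the groups EMP3 had an SD of 0.18 in log2 CPM, beside a median of 0.090 over all genes tested. Its SE and interval draw on the spread of other genes and may be too narrow, as may those of its differences from other members. Without the first vector sample the log2 fold change was -0.23, and without the second it was -0.50, so the size of the EMP3 difference moved with the vector sample that was kept. Without the first shCHD7_2 sample it was -0.26 and without the second -0.50. The annotated EMP3 gene overlaps CCDC114 on the opposite strand by 386 bases, and the sources used here do not say whether counting used strand. CCDC114 had between 3 and 9 estimated counts per sample.

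PMP22 and EMP2 lay at the same level in the groups within their spread. PMP22 had 51.1 and 51.4 CPM in the vector samples and 47.6 and 52.5 CPM in the shCHD7_2 samples. Its log2 fold change was -0.034 (SE 0.089), at 97.6% of the vector level with a 95% interval from 85.9% to 111%. EMP2 had 30.7 and 32.1 CPM in the vector samples and 31.0 and 31.1 CPM in the shCHD7_2 samples. Its log2 fold change was -0.016 (SE 0.096), at 98.9% of the vector level with a 95% interval from 86.2% to 113%. For both genes the groups overlapped, and the intervals do not exclude a fall to 85.9% or 86.2% of the vector level.

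Set against the other members, the log2 fold change of EMP1 was lower by 1.99 than that of EMP2 (difference -1.99, SE 0.12). The difference was -1.97 (SE 0.12) from PMP22 and -1.64 (SE 0.13) from EMP3. EMP3 was at -0.34 (SE 0.14) relative to PMP22, while EMP2 and PMP22 differed by 0.018 (SE 0.13). Over the 14 other settings tried, the log2 fold change of EMP1 ran from -2.05 to -1.93, that of EMP3 from -0.50 to -0.23, that of PMP22 from -0.11 to 0.030 and that of EMP2 from -0.049 to 0.028.

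**Figure D2:**
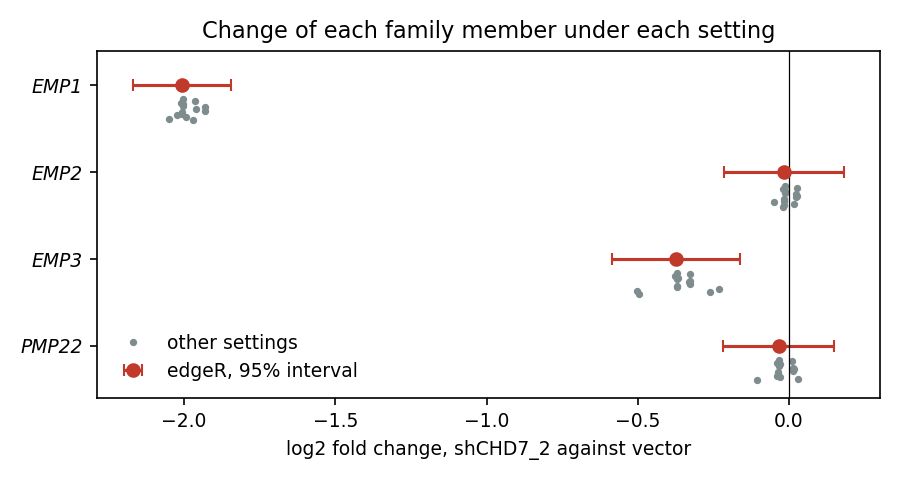
log2 fold change of each member between shCHD7_2 and vector samples, with edgeR's value and its 95% interval in red and the values of the 14 other settings as grey dots. EMP1 lies between -2.05 and -1.93 in every setting, apart from the other members, of which EMP3 lies below 0 in every setting and EMP2 and PMP22 lie near 0.

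The 4 members summed to 254.0 and 240.6 FPKM in the vector samples and to 133.3 and 144.5 FPKM in the shCHD7_2 samples. Without EMP1, the other members summed to 133.1 and 117.6 FPKM in the vector samples and to 101.1 and 114.2 FPKM in the shCHD7_2 samples. EMP1 held 49.4% ± 2.48 (SD, n = 2) of the summed level in vector cells and 22.6% ± 2.24 (SD, n = 2) in shCHD7_2 cells. EMP3 held 35.6% ± 3.13 (SD, n = 2) in vector cells and 50.3% ± 2.37 (SD, n = 2) in shCHD7_2 cells, a larger share of a smaller sum. No member was higher in both shCHD7_2 samples than in both vector samples on the CPM scale, a pattern shown by 26.4% of all genes tested.

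The ratio of counts to FPKM gives the length by which the deposited FPKM values were scaled, if the table's totals are taken as the depth. This length need not be that of an annotated transcript. For EMP1 that length was between 2640 and 2648 bases in the 4 samples. It was between 5041 and 5053 bases for EMP2, between 658 and 668 for EMP3 and between 1613 and 1624 for PMP22. The groups overlapped in this length for EMP1, EMP2 and EMP3. For PMP22 it was slightly shorter in both shCHD7_2 samples, at 1613 and 1616 bases against 1622 and 1624.

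The genes lie on 4 chromosomes of GRCh38, by GENCODE 29. EMP1 is on chromosome 12 from 13196716 to 13219939 on the plus strand and EMP2 on chromosome 16 from 10528422 to 10580698 on the minus strand. EMP3 is on chromosome 19 from 48321509 to 48330553 on the plus strand and PMP22 on chromosome 17 from 15229777 to 15265357 on the minus strand. Their surroundings hold related genes. ATF7IP lies on the far side of GRIN2B from EMP1 and ATF7IP2 lies beside EMP2, both of which encode partners of the methyltransferase SETDB1. GRIN2B lies near EMP1 and GRIN2D near EMP3, and these encode subunits of NMDA-type glutamate receptors. TEKT5 and TVP23A lie near EMP2, and TEKT3 and TVP23C near PMP22.

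The fall of EMP1 was set beside its neighbours, taken as the 3 nearest tested protein-coding genes on each side of each member. The 6 neighbours of EMP1 had log2 fold changes from -0.22 to 0.57, and none was called in edgeR with TMM scaling. FAM234B, which ends 54.2 kb before EMP1, was at 2.92 FPKM in vector cells and 4.46 FPKM in shCHD7_2 cells, in the opposite direction to EMP1 (log2 fold change 0.57, SE 0.12, adjusted p = 0.00325 from edgeR), just under the fold threshold. It passed both thresholds, as a gene called higher, with library totals (0.61), in limma with a pseudocount of 0.1 (0.59) and without the second shCHD7_2 sample (0.64). ATF7IP, 1146 kb after EMP1, was at a log2 fold change of 7.9e-04 (SE 0.085). GRIN2B lies between them and was not tested, with 1 read in all 4 samples.

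In the same fit, none of the neighbours of the other members was called. Those of EMP2 ran from -0.21 to 0.16 on the log2 scale, with ATF7IP2 at 0.074 (SE 0.14) and NUBP1, an iron-sulphur cluster assembly factor, at -0.21 (SE 0.12). Those of EMP3 ran from -0.27 to 0.28, with ZNF114 at -0.19 (SE 0.18) and TMEM143 at 0.025 (SE 0.21). Those of PMP22 ran from -0.17 to 0.40, with HS3ST3B1, a heparan sulphate sulfotransferase, at 0.32 (SE 0.19) and CDRT4 at -0.17 (SE 0.60). CDRT4 shares its exons with the read-through gene TVP23C-CDRT4, so its value is uncertain. It was at 2.4 and 0 FPKM in the vector samples and at 0.96 and 1.23 FPKM in the shCHD7_2 samples, and its fitted log2 fold change was 8.32 without the first vector sample, where the remaining one is listed at 0, and -1.18 without the second.

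**Figure D3:**
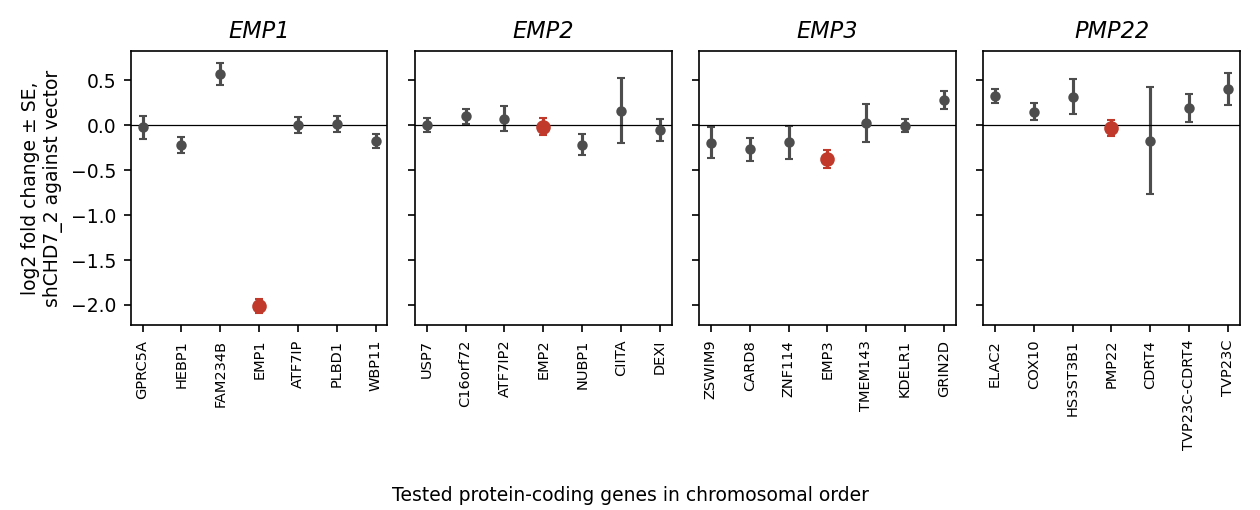
log2 fold change ± SE of each member (red) and of the 3 nearest tested protein-coding genes on each side (grey), in chromosomal order. EMP1 at -2.01 lies below its 6 neighbours, which are between -0.22 and 0.57, and EMP3 at -0.37 also lies below its own, which are between -0.27 and 0.28.

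Matches to 3 words of 7 bases in the 3′ UTRs were counted because an earlier analysis of these data found the words more often in genes that fell, EMP1 among them, so the match in EMP1 is no independent evidence. The first word was AGCTATT and the second was GAAGCTA. The third word was GCTATTA. They were searched on the mRNA strand in the longest 3′ UTR annotated in GENCODE 29. The words overlap one another in sequence, and a 3′ UTR with any of them was counted once. EMP1 and PMP22 hold 1 match each and EMP2 and EMP3 hold none. The sites are shown with 10 bases on either side, with the matched word in capitals.
EMP1: gccctggagcAGCTATTttaagccatc
PMP22: tagctaggctGCTATTAttactataat
The EMP1 site is at chr12:13216117-13216143 on the plus strand and the PMP22 site at chr17:15230069-15230095 on the minus strand (GRCh38), each in the 3′ UTR part of the last exon, exon 5 of 5. The longest run of bases that both windows hold is GCTATT, of 6 bases. The matched words themselves share this run, so nothing is read from it.

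The EMP1 match starts at base 1436 of a 3′ UTR of 5248 bases, and at base 2109 of an annotated transcript of 5921 bases. The FPKM values imply a shorter length of about 2640 bases, so they do not show whether the counted mRNA holds the site. The match was present in 1 of the 5 annotated 3′ UTRs of EMP1. The PMP22 match starts at base 1024 of a 3′ UTR of 1319 bases and was present in 5 of 7 annotated 3′ UTRs. Of the 11685 tested genes with an annotated 3′ UTR, 22.3% held at least 1 of the words. Longer 3′ UTRs held a word more often. Among the 928 genes with a 3′ UTR about as long as that of EMP1 (4200 to 6560 bases) the share was 57.7%. Among the 1812 about as long as PMP22 (1056 to 1648 bases) it was 17.8%. EMP2, whose 3′ UTR of 4483 bases holds no word, lies among genes of which 51.1% held one (3587 to 5600 bases), and EMP3, with 83 bases, among genes of which 0.658% did (67 to 103 bases).

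Most genes with these words were not called. The words had been chosen on these data for their presence in genes that fell, so the shares that follow are a description and nothing is read from their excess of lower calls. Of the 1566 tested genes with AGCTATT, the word in EMP1, 4.79% were called lower and 0.830% higher, with a median log2 fold change of -0.085. Of the 993 with GCTATTA, the word in PMP22, 5.24% were called lower and 0.806% higher, with a median of -0.10. Over all genes tested, 1.37% were called lower. Of the genes that held any of the words, 2.62% were called lower where the 3′ UTR was about as long as that of EMP1, and 5.28% where it was about as long as that of PMP22. The share among genes of these lengths without a word is not given here, so these values have no comparator of like length. Whether the shRNA acts on either site was not tested, and with a single CHD7 shRNA the loss of CHD7 and other effects of the hairpin cannot be told apart.

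The genes with the pattern most like that of EMP1 were those with the smallest Euclidean distance to it over the 4 samples, in log2 CPM relative to each gene's own vector mean. They were LAIR2, a soluble collagen-binding receptor, at a distance of 0.154, NUPR1, a stress-induced nuclear protein, at 0.392, and FLII, an actin-binding protein of the gelsolin family, at 0.460. They were followed by MBTPS1, the protease that cleaves SREBP precursors, at 0.792 and DEGS1, a desaturase of ceramide synthesis, at 0.863. LAIR2 was at 39.38 and 44.04 FPKM in the vector samples and 11.45 and 10.96 FPKM in the shCHD7_2 samples, and its reads could be shared with its close paralogue LAIR1. NUPR1 was at 12.45 and 12.11 FPKM against 2.35 and 2.67 FPKM. Among 11954 other genes, EMP3 ranked 698, PMP22 5036 and EMP2 5486 in likeness to EMP1. By lowest log2 fold change they ranked 693, 5092 and 5553, so the likeness ranks mostly restate the contrast on which EMP1 was chosen. The 3′ UTRs of LAIR2 and FLII, of 118 and 302 bases, hold none of the words. Those of NUPR1 (4975 bases), MBTPS1 (683 bases) and DEGS1 (963 bases) hold 3, 1 and 2 of them, and longer 3′ UTRs held a word more often.

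The wider tetraspan family was represented by 45 genes, claudins and their relatives among them, of which 25 were listed and 8 passed the filter on low counts. The 8 had a median log2 fold change of 0.085, beside 5.6e-04 over all genes tested, with 5 higher and 3 lower. CLDN12, a claudin widely expressed in epithelia, was the 1 gene of the 8 called, beside 1.51% of all genes tested that were called higher. It rose from 39.83 and 42.39 FPKM in the vector samples to 71.80 and 61.45 FPKM in the shCHD7_2 samples (log2 fold change 0.65, SE 0.082, adjusted p = 9.0e-06 from edgeR). It was higher in both shCHD7_2 samples than in both vector samples, as 26.4% of all genes tested were on the CPM scale. Without the first shCHD7_2 sample its log2 fold change was 0.54, under the fold threshold.

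PERP, a tetraspan protein of desmosomes, was the highest of these genes in vector cells, and was below CLDN12 in shCHD7_2 cells. It was at 60.31 and 61.98 FPKM in the vector samples and 56.07 and 53.97 FPKM in the shCHD7_2 samples. Both shCHD7_2 samples were below both vector samples, a pattern that 27.3% of all genes tested showed on the CPM scale. PERP did not pass the test (log2 fold change -0.20, SE 0.077, adjusted p = 0.106 from edgeR). CLDND1, a claudin-domain protein, was at 40.04 and 38.31 FPKM against 36.43 and 34.43 FPKM (log2 fold change -0.19, SE 0.084, adjusted p = 0.164 from edgeR). The lowest of the 8 log2 fold changes was -0.29, against -2.01 for EMP1. EMP1 was chosen on this contrast and ranked 5 by lowest log2 fold change of all genes tested, so nothing is read from this gap.

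Of 21 genes known as binding or signalling partners of the family, all were listed and 17 were tested, with a median log2 fold change of -0.10. ITGA6, the laminin receptor subunit found with PMP22 in the α6β4 integrin, rose from 8.14 and 8.60 FPKM to 14.17 and 12.44 FPKM (log2 fold change 0.63, SE 0.091, adjusted p = 5.2e-05 from edgeR). Without the first shCHD7_2 sample it was at 0.54, under the fold threshold. CAV1, the main coat protein of caveolae, fell from 14.36 and 14.27 FPKM to 9.52 and 9.07 FPKM (log2 fold change -0.66, SE 0.098, adjusted p = 6.6e-05 from edgeR). In limma with a pseudocount of 1, CAV1 was at -0.57, under the fold threshold. No other gene of the list was called, so that 2 of 17 were called, beside 2.88% of all genes tested. Without a threshold on the fold, 5 of the 17 had an adjusted p under 0.05 from edgeR, beside 1373 of all 11955 genes. Of the latter, CD44 was at -0.42, ITGB5 at -0.40 and ITGB1 at -0.23 on the log2 scale, named here after their values were seen.

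**Figure D4:**
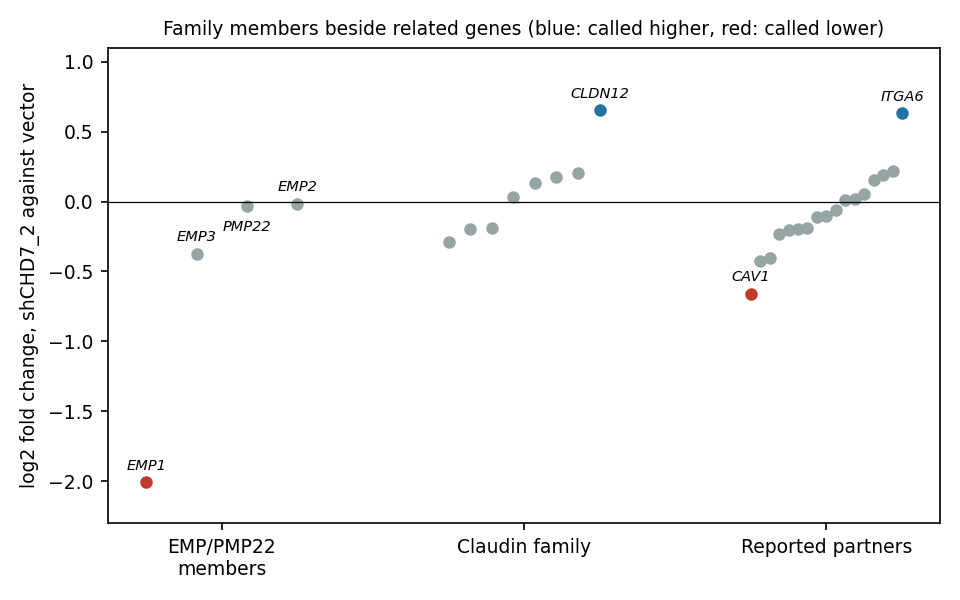
log2 fold change of the 4 members and of the tested genes of the claudin family (8) and the reported partners (17), with genes called higher in blue and called lower in red. EMP1 at -2.01 lies below every gene of both other lists, the lowest of which is CAV1 at -0.66. EMP1 was chosen for its fall on this contrast, so nothing is read from its place below them.

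Several partners were at the floor of the measurement. ITGB4, which pairs with ITGA6 in the α6β4 integrin, had a mean of 0.0425 FPKM, ITGB3 had 0.0400 FPKM, and P2RX7, a receptor that binds the EMP proteins, was listed at 0 FPKM in each sample.

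Of the 21 tight junction genes, 20 were listed and 17 tested, with a median log2 fold change of 0.053. JAM3, a junctional adhesion molecule, was called lower on 30 and 18 counts in the vector samples against 10 and 10 in the shCHD7_2 samples (log2 fold change -1.28, SE 0.40, adjusted p = 0.0373 from edgeR). Its call was lost with DESeq2, and in edgeR and limma when genes with low values were kept, and over its alternatives its log2 fold change ran from -1.62 to -0.28. It was lost without the first vector sample, at -0.86, and without either shCHD7_2 sample, at -1.28 and -1.29. TJP1 and OCLN, which encode ZO-1 and occludin, were at 0.029 and 0.053 on the log2 scale.

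Markers of other cell types were examined in the same samples. Of 10 Schwann cell markers 6 were listed, and SOX10, which encodes a transcription factor of these cells, had a single read in 1 sample, with MBP at 4.96 FPKM on average, while PMP22 was at 31.1 FPKM or more on average in both groups. The 4 of 10 fibroblast markers that were listed summed to between 0.0800 and 0.220 FPKM per sample. Of 7 immune markers 4 were listed, and CD14 and ITGAM were at 0.0125 FPKM, while CD68, which many cell lines express, was at a mean of 559 FPKM. Of 15 squamous markers, 8 were listed and 5 tested, and none was called. Their sum was 805.6 and 812.7 FPKM in the vector samples and 963.3 and 1161 FPKM in the shCHD7_2 samples, most of it S100A2, and its part in the change of EMP1 was not tested.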

How the data were processed

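The authors deposited expected counts per gene, not normalized, and FPKM values, normalized by gene length and library depth. The submitters' processing notes name Bowtie2, RSEM, DESeq2 and hg38; versions and annotation are not given in the sources used here. RSEM divides reads between similar genes, so paralogues are uncertain. Counts were rounded, filtered with filterByExpr, scaled by TMM and tested with edgeR 4.0.16 in R 4.3.3 (quasi-likelihood, Benjamini-Hochberg over 11955 genes). SE values were derived from the F statistic. The fits were tested on simulated data.

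The members and lists were chosen with earlier results of these data known. Named genes were the members, CHD7, up to 5 called genes per list, PERP, the 3 highest claudin-family genes, the nearest tested neighbours, and the 5 genes most like EMP1; others were added after their values were seen. Genes were matched to GENCODE 29 (GRCh38) by symbol. Alternatives were other scalings and filters, DESeq2 1.42.0, limma 3.58.1 on log2(FPKM + 1) or log2(FPKM + 0.1), a replicate block, and leaving out each sample. Some genes of the lists are not reported here.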

Additional observations from a re-analysis of the deposited data

How the results depend on the processing

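The log2 fold changes of EMP1 and EMP3 were below 0 under all 14 alternatives, given as a description since EMP1 was chosen on this contrast. With library totals EMP1 was at -1.96 and EMP2 at 0.028. With limma on FPKM EMP1 was at -1.93 (pseudocount 1) or -1.96 (0.1) and EMP2 at 0.024 or 0.028. CHD7 was at -0.51 or -0.58 in limma, under the fold threshold. Its adjusted p from limma with a pseudocount of 1 was 0.00540, or 0.104 without a filter. The smallest adjusted p of CHD7 over its alternatives, 9.8e-34 in edgeR, came only from the crossed pairing that was chosen after seeing the data. The cause of these shifts was not tested. Without a filter on low counts the claudin-family median was -0.19 and the tight junction list had 0 calls higher and 0 lower; it had 0 lower with a CPM of at least 5, DESeq2 and limma. In limma with a pseudocount of 1 the partners had 0 calls lower and the tight junction list 0 higher, and without a filter no list had a call (0) and the partners' median was 0.0024. Leaving out each sample, with the lone sample of a group assumed to vary like the other group, EMP1 ran from -2.05 to -1.97, EMP2 from -0.049 to 0.016, PMP22 from -0.11 to 0.030, CHD7 from -0.82 to -0.67, the partners' median from -0.22 to -0.010, calls higher from 0 to 1 in the claudin family and the partners, and tight junction calls from 0 to 2 in either direction; CDRT4 went from -1.18 (then called lower) to 8.32, the latter fitted against a sample at 0 and so no measure of size. Calls over all genes were 344, against 141 without a filter, 219 in DESeq2, 172 in limma and 23 in limma without a filter. A replicate block gave 329 calls, put EMP1 at -2.01, and changed the call of no named gene. Same-numbered samples correlated at -0.198 in their deviations, so the numbers did not pair samples; with the pairing crossed, chosen after seeing the data, 423 genes were called. With 2 samples a group, changes of EMP2 and PMP22 within their intervals could not be resolved.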
